A study of Mus musculus with 15 samples.

Results

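Liver RNA of mice that had held a gut microbiota since birth was compared with liver RNA of germ-free mice, both fed chow. Conventionally raised (ConvR) mice acquired their microbiota from birth, and germ-free (GF) mice were kept without living microorganisms. Each group held 3 mice, so that the comparison used 6 of the 15 libraries of the study, chosen by their labelled colonization status and diet. All were male C57BL/6J mice, a common inbred strain, studied at 19 weeks of age. From 3 weeks they had eaten an irradiated and autoclaved breeder chow with 23.7% of its energy from fat, 53.2% from carbohydrate and 23.1% from protein. The labels call the 3 samples of a group biological replicates, and each was a separate mouse. ConvR and GF mice lived in separate isolators and were caged together by colonization status and diet, so that isolator and cage cannot be told apart from the microbiota. Of the other libraries, 6 came from ConvR and GF mice on a high-fat, high-sucrose diet (HF/HS, with 44.6% of its energy from fat, 40.6% from carbohydrate and 14.8% from protein). The remaining 3 came from chow-fed conventionalized (ConvD) mice, born germ-free and given cecal contents of ConvR donors at 15 weeks.

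The liver receives blood from the gut through the portal vein and with it nutrients, bile acids that have been taken up again from the intestine, and products of gut microbes. Bile acids are made from cholesterol in hepatocytes, joined to taurine or glycine and secreted, and gut microbes split off the amino acid and alter the steroid ring before part of the pool returns. Hepatocytes also take up and break down amino acids, release glucose in fasting under the control of insulin, and carry receptors for bacterial molecules, as do the resident macrophages called Kupffer cells.

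The 6 libraries held 14737578 to 21219381 estimated reads, and levels are given as CPM, read counts relative to the scaled total of the library. Of 20325 genes listed, 12377 passed a filter on low counts and were tested with edgeR's quasi-likelihood test, with a gene called when its p adjusted by the Benjamini-Hochberg method was below 0.05. Fold changes are log2 values of ConvR minus GF ± standard error, with 3 mice per group throughout, and adjusted p values come from this test. The 14 hepatocyte markers summed to 91312, 87604 and 110885 CPM in ConvR mice 1, 2 and 3 and to 129807, 126593 and 111140.3 CPM in GF mice 1, 2 and 3, lowest in ConvR mice 1 and 2, with no marker at 0. Some mice stood apart from their group. ConvR mice 1 and 2 held more acute phase transcripts than the other mice: the summed level of that list was 136914, 170132 and 49566 CPM in the 3 ConvR mice and 61839, 51036 and 47257 CPM in the 3 GF mice. Transcripts of immediate early genes, which are switched on within minutes of a stimulus, stood highest in GF mouse 1, at 2506, 728 and 391 CPM in the 3 GF mice and 426, 471 and 223 CPM in the 3 ConvR mice. These transcripts are not described further here. When ConvR mice 1 and 2 were left out together, 12 genes were called (0.0939% of 12773 tested). Outside the acute phase list these were Cyp3a11, Csad, Cyp39a1, Cry2, Dmgdh, Amd2 and Spry4, so that every other gene outside that list described below as higher or lower on chow was not called in that setting.

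A total of 584 genes were called, which is 4.72% of those tested. They divided into 316 genes higher (2.55%) and 268 lower (2.17%) in ConvR livers. Of all genes tested, 49.5% had a log2 fold change above 0. List counts below are to be read beside these shares of all genes. The acute phase and immediate early lists held 33 of the calls and 551 lay outside them. Of all calls, 455 were in no function list. The CPM ranges of the ConvR and GF mice did not overlap for 543 of the called genes, against 19.6% of all genes tested (9.82% with ConvR higher and 9.74% with ConvR lower). The count depended on single mice: 55 genes were called without ConvR mouse 1, 46 without ConvR mouse 2, 1655 without ConvR mouse 3 and 295 (2.35% of 12531) without GF mouse 1. The 6 libraries fitted alone gave 0 calls by edgeR, with 1582 genes at an unadjusted p below 0.05. The 584 calls came from a fit in which the spread of each gene was estimated over all 15 libraries. The share of higher genes among the calls was 54.1%. It was 40.6% when no normalization factors were used and 17.1% when the authors' TPM values were tested, a scale on which the median of all genes was -0.10.

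Called genes that remained called in each of the 6 fits that left out 1 mouse numbered 38, or 0.307% of the genes tested. Of these, 6 belonged to the acute phase list, 1 to the immediate early list and 1 was a predicted gene. The other 30 comprised 22 genes higher and 8 lower in ConvR livers. The 22 higher genes were Cyp39a1, Chordc1, Ctsc, Tlr4, Golm1, Slc35e3, Slc3a1, Cyp3a11, Msrb3, Acnat2, Dynll1, Cxcl14, Mmd2, Prtn3, Isyna1, Bag3, Reep5, Sgce, Sema6b, Prcp, Ptgr1 and Csad. The 8 lower genes were Dmgdh, Spry4, Gpx6, Srsf5, Acad10, Faah, G6pc and Eepd1. Some of them act in bile acid synthesis (Cyp39a1), taurine synthesis (Csad), choline breakdown (Dmgdh), drug oxidation (Cyp3a11) or glucose release (G6pc). Others act in sensing of bacterial products (Tlr4) or protein folding (Chordc1 and Bag3), and many belong to none of these functions. In 27 of the 30 the difference from the GF mean was smaller in ConvR mouse 3 than in the mean of ConvR mice 1 and 2 on the log2 CPM scale. With ConvR mice 1 and 2 both left out, 5 of the 30 were called (Cyp39a1, Csad, Cyp3a11, Dmgdh and Spry4) and 25 were not, with adjusted p from 0.0769 (Chordc1) to 0.48 (Prtn3).

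**Figure D1:**
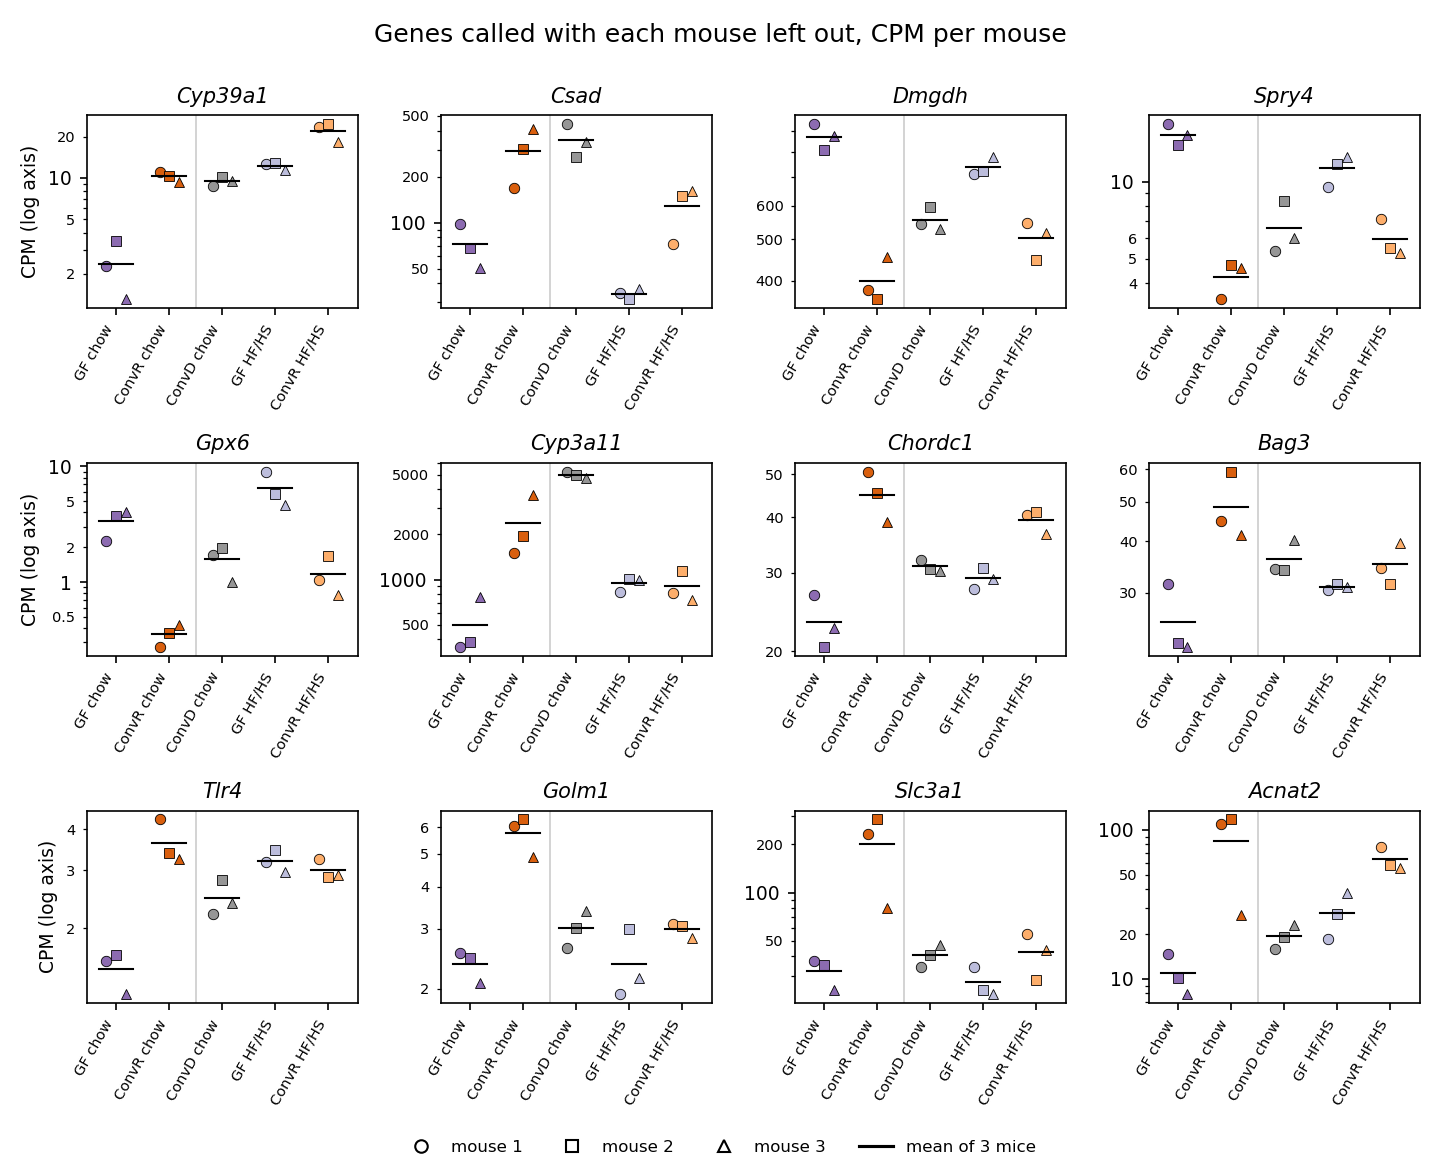
CPM per mouse, on log axes, of 12 genes called in all fits that left out 1 mouse. Points are mice (circle, square and triangle for mice 1, 2 and 3), bars are means of 3 mice, and ConvD and HF/HS mice stand right of the grey line. In every panel the 3 ConvR chow mice lie on 1 side of the 3 GF chow mice, which the choice of such genes favours. For Slc3a1 and Acnat2 the triangle of ConvR mouse 3 lies far below the other ConvR mice.

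Cyp39a1 of bile acid synthesis, Csad of taurine synthesis and the related acyltransferase Acnat2 were higher, while most genes of the bile acid list were not called. Cyp39a1, a hydroxylase that acts on 24-hydroxycholesterol on the way to bile acids, stood at 11.1, 10.3 and 9.41 CPM in ConvR mice 1, 2 and 3 and at 2.27, 3.48 and 1.30 CPM in GF mice 1, 2 and 3. All 3 ConvR mice lay close together and above every GF mouse, mouse 3 among them (log2 fold change 2.14 ± 0.23, adjusted p = 0.000742, 4.41-fold). Csad, the decarboxylase that makes the taurine precursor hypotaurine from cysteine sulfinate, stood at 169, 305 and 412 CPM in ConvR mice and 98.2, 67.8 and 50.1 CPM in GF mice. The groups did not overlap, and ConvR mouse 3 was the highest of the 6 (log2 fold change 2.04 ± 0.35, adjusted p = 0.0114). With ConvR mouse 3 as the only ConvR mouse, Cyp39a1 (log2 fold change 2.01) and Csad (2.52) were still called. With GF mouse 1 left out as well, Csad was called and Cyp39a1 was not. Acnat2, a peroxisomal acyltransferase related to the bile acid conjugating enzyme Baat, stood at 109, 118 and 26.8 CPM in ConvR mice and 14.6, 10.2 and 7.88 CPM in GF mice. ConvR mice 1 and 2 were far above mouse 3, which itself exceeded every GF mouse (log2 fold change 2.97 ± 0.45, adjusted p = 0.00612, and 1.31, adjusted p = 0.37, without ConvR mice 1 and 2). Reads of Acnat2 could be shared with its near copy Acnat1, so its level is uncertain.

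The main hydroxylases of the bile acid pathway were not called. Cyp7a1, which starts the classical route from cholesterol, stood at 49.8, 38.0 and 74.7 CPM in ConvR mice and 20.0, 37.6 and 39.6 CPM in GF mice. The groups touched, with ConvR mouse 2 below GF mouse 3, and the 95% interval of the log2 fold change, not adjusted for the number of genes, ran from 0.10 to 1.37 (adjusted p = 0.153). Cyp8b1, whose activity sets the share of cholic acid, stood at 200.2, 184 and 253 CPM against 204, 239.7 and 439 CPM, with an interval of -1.0 to 0.05 (adjusted p = 0.261). Nr1h4, the bile acid receptor FXR, stood at 92.3, 95.7 and 98.1 CPM against 71.3, 73.5 and 107 CPM (interval -0.09 to 0.45, adjusted p = 0.402). Of the 22 tested members of the bile acid synthesis list, 3 were higher, 0 lower and 19 not called. Its median log2 fold change was -0.21, beside -0.00 over all genes tested.

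Of 23 tested members of the bile transport and FXR list, 1 was higher, 3 were lower and 19 were not called, with a median of -0.15. Slc10a2, the sodium-dependent bile acid transporter known best from the ileum and bile ducts, stood at 30.9, 36.4 and 18.3 CPM in ConvR mice and 17.3, 11 and 7.54 CPM in GF mice. The ConvR mice lay above the GF mice, mouse 3 only just (log2 fold change 1.27 ± 0.26, adjusted p = 0.0195; adjusted p without ConvR 1 or ConvR 2 was 0.0728 and 0.101 in that order). Abcg8, a subunit of the pump that exports sterols into bile, stood at 60.1, 37.9 and 69.7 CPM in ConvR mice and 125, 129 and 94.6 CPM in GF mice. Here the ConvR mice were all lower, again with mouse 3 nearest to the GF range (log2 fold change -1.05 ± 0.21, adjusted p = 0.0194; adjusted p without ConvR 1 or ConvR 2 was 0.0673 and 0.0881 in that order). The FGF co-receptor Klb (log2 fold change -0.66 ± 0.15, adjusted p = 0.0324) and the canalicular organic anion pump Abcc2 (log2 fold change -0.47 ± 0.12, adjusted p = 0.0372) were also lower. Neither was called when ConvR mouse 1 or 2 or GF mouse 1 or 2 was left out, with adjusted p up to 0.131 for Klb and 0.157 for Abcc2. Without ConvR mice 1 and 2 the list had 0 calls.

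Dmgdh encodes dimethylglycine dehydrogenase, a mitochondrial enzyme of choline breakdown that turns dimethylglycine into sarcosine. It stood at 381, 362 and 456 CPM in ConvR mice and at 932, 809 and 874 CPM in GF mice. The 3 ConvR mice lay below every GF mouse (log2 fold change -1.13 ± 0.11, adjusted p = 0.000623, 2.18-fold), and the gene was still called without ConvR mice 1 and 2 (log2 fold change -0.94, adjusted p = 0.0459). Sardh, the next enzyme, which turns sarcosine into glycine, stood at 673, 604 and 808 CPM against 1124, 985 and 1049.6 CPM. The groups were apart as well, with a smaller difference (log2 fold change -0.60 ± 0.14, adjusted p = 0.0282; adjusted p without ConvR 1, ConvR 2 or GF 1 was 0.112, 0.131 and 0.0637 in that order). Of genes that act before these, 2 were not called. The choline dehydrogenase Chdh had a log2 fold change of -0.23 ± 0.12 (adjusted p = 0.285), and Bhmt, which uses betaine to make dimethylglycine, of -0.74 ± 0.25 (adjusted p = 0.0951). All 3 ConvR mice had less Bhmt than any GF mouse, at 5181, 3535 and 3499 CPM against 6222, 5426 and 8699 CPM. In the list of methionine, folate and one-carbon genes, 4 of 29 members were lower and 0 higher, with a median of -0.21. Besides Dmgdh and Sardh the lower members were Aldh7a1, an aldehyde dehydrogenase that can act on betaine aldehyde (log2 fold change -0.49 ± 0.11, adjusted p = 0.0318), and Cth, the cystathionine lyase that makes cysteine (log2 fold change -0.84 ± 0.21, adjusted p = 0.0417). Aldh7a1 lost its call without ConvR mouse 1 or 2 or GF mouse 1, with adjusted p up to 0.145, and Cth without ConvR mouse 1 or 2 or GF mouse 1 or 3, with adjusted p up to 0.18.

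Among enzymes of amino acid breakdown, 12 of 47 tested were lower in ConvR livers, beside 2.17% of all genes. Of the rest of that list 1 (Csad) was higher and 34 were not called, and 43 of the 47 had a log2 fold change below 0. The median was -0.39, and -0.21 with ConvR mice 1 and 2 left out, when 0 of the 12 were called. Hepatocyte markers, of which 0 of 14 were called, had a median of -0.21 with all mice and -0.23 without ConvR mice 1 and 2, and their part in the list was not tested. Glycine cleavage was represented by Amt, the aminomethyltransferase of the cleavage system, at 30.1, 32.1 and 35.2 CPM in ConvR mice and 56.5, 44.4 and 48.0 CPM in GF mice. Its ranges did not overlap (log2 fold change -0.61 ± 0.12, adjusted p = 0.0194; adjusted p without ConvR 1 or ConvR 2 was 0.0796 and 0.0981 in that order). Gldc, the decarboxylase of the same complex, was lower too (log2 fold change -0.52 ± 0.12, adjusted p = 0.0318). Pccb, a subunit of the propionyl-CoA carboxylase used in breaking down branched-chain amino acids and odd-chain fatty acids, stood at 135, 134 and 161 CPM against 219, 186 and 197 CPM. The difference was small but the spread within groups was smaller (log2 fold change -0.49 ± 0.09, adjusted p = 0.0147; adjusted p without ConvR 1 or ConvR 2 was 0.0701 and 0.0909 in that order). Other lower members were Hgd, Agxt, Agxt2, Got1, Oat, Bckdha, Mccc1 and Mut, with log2 fold changes from -1.0 (Got1) to -0.39 (Bckdha). Each of the 12 lost its call without ConvR mouse 1 and without ConvR mouse 2, and those named here, other than Amt and Pccb, also without GF mouse 1. The number of lower members ran from 0 to 27 over the fits that left out 1 mouse.

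Among the genes of drug oxidation, Cyp3a11 was higher. It encodes a cytochrome P450 that has a broad range of substrates and is known as a target of the xenobiotic receptor PXR. Cyp3a11 stood at 1505, 1941 and 3679.9 CPM in ConvR mice and 355, 380.5 and 762 CPM in GF mice. The groups did not overlap, and ConvR mouse 3, with few acute phase transcripts, was the highest (log2 fold change 2.25 ± 0.33, adjusted p = 0.00592, 4.76-fold). The call held without ConvR mice 1 and 2 (log2 fold change 2.88, adjusted p = 0.00287) and without GF mouse 1 (2.07, adjusted p = 0.0195). In the 3 ConvD mice Cyp3a11 stood at 5252, 4955 and 4766 CPM. Genes of the Cyp3a family are near copies of one another, so reads could have been split wrongly among them. Its relative Cyp3a13 stood at 252, 273 and 146 CPM against 126, 141 and 148 CPM. ConvR mice 1 and 2 exceeded the GF mice and mouse 3 did not (log2 fold change 0.69 ± 0.18, adjusted p = 0.0447, and 0.07, adjusted p = 0.913, without them). Of other P450 genes, Cyp17a1 (2.41 ± 0.58, adjusted p = 0.0351) and Cyp21a1 (1.32 ± 0.35, adjusted p = 0.0447) were also called higher. Both lost their calls without ConvR mouse 1 or 2, with adjusted p up to 0.15 and 0.189. Outside the lists, 4 P450 genes were called lower and were picked after their values were seen. Cyp2d22 stood at 141, 113 and 161 CPM in ConvR mice and 199, 210.0 and 231 CPM in GF mice, with no overlap (log2 fold change -0.63 ± 0.11, adjusted p = 0.0133, and 0.0558 without ConvR mouse 1). Cyp2c67 (-0.80 ± 0.18, adjusted p = 0.0276), Cyp2c44 (-0.98 ± 0.25, adjusted p = 0.0417) and Cyp2c68 (-0.48 ± 0.13, adjusted p = 0.0447) were lower as well, and so was Cyp2c40 of the female-biased list (-1.55 ± 0.35, adjusted p = 0.0282). These 4 Cyp2c genes, which have near copies, lost their calls without ConvR mouse 1 or 2 (adjusted p up to 0.122, 0.182, 0.153 and 0.0981 in turn). Nr1i2, which encodes PXR, stood at 64.9, 54.3 and 47.6 CPM against 82.9, 55.8 and 60.2 CPM, with an interval of -0.56 to 0.06 (adjusted p = 0.31). Of 29 tested members of the CAR and PXR drug metabolism list, 2 were higher, 1 (Abcc2) was lower and 26 were not called, and the median was -0.16. In the conjugation list 1 of 44 members, Gstp2, was higher (log2 fold change 1.92 ± 0.38, adjusted p = 0.0195; adjusted p without ConvR 1 or ConvR 2 was 0.0527 and 0.101 in that order), and 3 (Gstm6, Gstm7 and Gstt2) were lower. These glutathione transferases also have near copies, and the lower 3 lost their call without ConvR mouse 1 or 2 or GF mouse 1 or 3.

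Several genes of glucose release and insulin signalling were lower in ConvR livers. GF mouse 1, which held the most immediate early transcripts, had the highest level of many of them. G6pc encodes the catalytic subunit of glucose 6-phosphatase, the last step by which the liver frees glucose. It stood at 162, 73.4 and 188 CPM in ConvR mice and at 1264, 561 and 351 CPM in GF mice. All ConvR mice were below all GF mice, and GF mouse 1 was the highest (log2 fold change -2.36 ± 0.39, adjusted p = 0.0106, and -1.68, adjusted p = 0.0193, without GF mouse 1). Without ConvR mice 1 and 2 the value was -1.95 (adjusted p = 0.376). Pck1, the cytosolic kinase of phosphoenolpyruvate synthesis, did not follow the same order: it stood at 2175, 1918 and 344 CPM against 5457, 1369 and 1031 CPM. ConvR mice 1 and 2 exceeded GF mice 2 and 3, and ConvR mouse 3 was the lowest (adjusted p = 0.42, interval -2.09 to 0.44). Of 29 tested members of the gluconeogenesis and fasting list, 3 were lower (G6pc, Igfbp1 and Irs2), 1 was higher (Creb1) and 25 were not called, with a median of -0.21 and of -0.09 without GF mouse 1.

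Irs2, an adaptor that carries the insulin signal from its receptor, stood at 11.7, 9.46 and 5.67 CPM in ConvR mice and 73.9, 22.0 and 17.0 CPM in GF mice. The groups were apart, with GF mouse 1 far above the rest (log2 fold change -2.06 ± 0.44, adjusted p = 0.0255, and -1.10, adjusted p = 0.0451, without it; adjusted p without ConvR 1 or ConvR 2 was 0.0708 and 0.102 in that order). Irs1, the related adaptor, stood at 20.4, 12.5 and 19.0 CPM against 34.5, 25.2 and 33.5 CPM. Its GF mice were alike and all above the ConvR mice (log2 fold change -0.84 ± 0.18, adjusted p = 0.0264; adjusted p without ConvR 1, ConvR 2 or GF 1 was 0.0571, 0.107 and 0.0622 in that order). Grb14, an inhibitor of the insulin receptor, was also lower (log2 fold change -0.55 ± 0.11, adjusted p = 0.0195; adjusted p without ConvR 1 or ConvR 2 was 0.0671 and 0.101 in that order). Igfbp1, a secreted binding protein of insulin-like growth factors that insulin lowers, stood at 69.6, 50.6 and 10.2 CPM against 1195, 245 and 66.4 CPM. It varied widely among GF mice, and ConvR mouse 1 exceeded GF mouse 3 (log2 fold change -3.53 ± 0.83, adjusted p = 0.0332; adjusted p without ConvR 1, ConvR 2 or GF 1 was 0.0846, 0.131 and 0.111 in that order). Igfbp2, another such binding protein, stood at 161, 173 and 265 CPM against 817, 481 and 390.3 CPM. The ranges were apart and again GF mouse 1 was highest (log2 fold change -1.50 ± 0.27, adjusted p = 0.0142; adjusted p without ConvR 1 or ConvR 2 was 0.0701 and 0.0909 in that order). Over the insulin and growth factor list, 6 of 31 tested members were lower, 1 (Ptpn1, a phosphatase) was higher and 24 were not called, with a median of -0.18. Without GF mouse 1, 3 members were lower and 0 higher.

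Spry4, an inhibitor of the MAP kinase pathway downstream of growth factor receptors, was the 1 member of that list called with each mouse left out. It stood at 3.46, 4.70 and 4.58 CPM in ConvR mice and at 16.8, 13.9 and 15.2 CPM in GF mice. Mice within a group differed little, GF mouse 1 included, and the groups were far apart (log2 fold change -1.85 ± 0.19, adjusted p = 0.000623, 3.60-fold). The call held without ConvR mice 1 and 2 (log2 fold change -1.74) and without GF mouse 1 (-1.76, adjusted p = 0.00226). It was lost when these mice were all left out together. Trib1, a pseudokinase that lowers hepatic lipid synthesis, stood at 36.5, 43.8 and 39.7 CPM against 299, 93.0 and 44.9 CPM. GF mouse 3 lay just above the ConvR mice and GF mouse 1 far above (log2 fold change -1.86 ± 0.47, adjusted p = 0.0384; adjusted p without ConvR 1, ConvR 2 or GF 1 was 0.141, 0.141 and 0.107 in that order). Several of the largest decreases outside the immediate early list were also highest in GF mouse 1. Fst, the activin-binding follistatin, stood at 1.93, 0.964 and 1.15 CPM against 24.6, 4.57 and 2.66 CPM (log2 fold change -2.94 ± 0.71, adjusted p = 0.0344). It lost its call without GF mouse 1 (-1.39 on the log2 scale, adjusted p = 0.0963) and also without ConvR mouse 1 or 2 (adjusted p up to 0.152). The MAP kinase phosphatase Dusp4 (log2 fold change -2.28 ± 0.55, adjusted p = 0.0351) behaved likewise, with adjusted p = 0.0865 without GF mouse 1 and up to 0.152 without ConvR mouse 1 or 2. The endothelial gene Apold1 (log2 fold change -2.34 ± 0.48, adjusted p = 0.0206) stayed called without GF mouse 1 (adjusted p = 0.0354) but not without ConvR mouse 1 or 2 (up to 0.104).

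**Figure D2:**
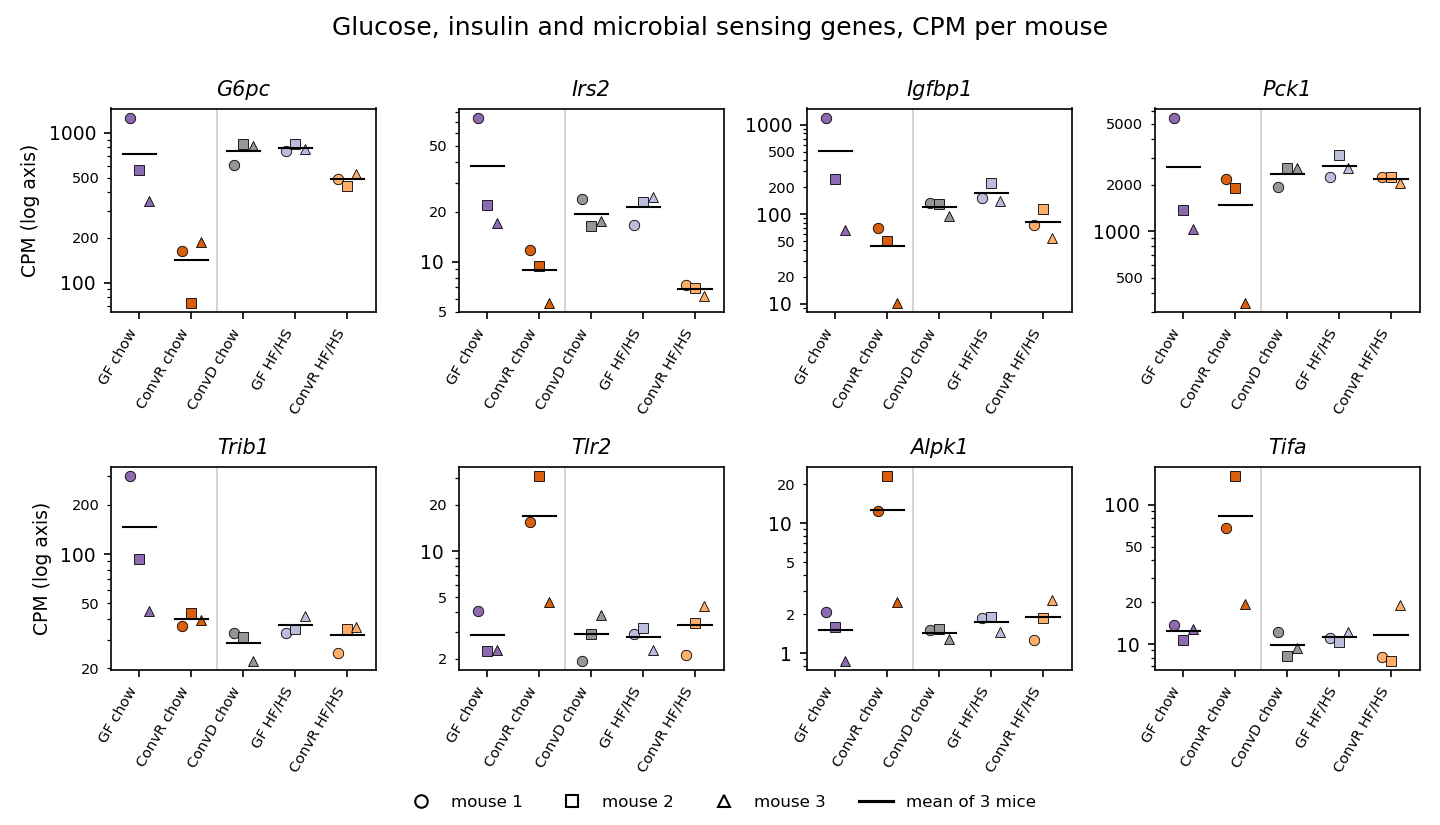
CPM per mouse, on log axes, of glucose and insulin genes (G6pc, Irs2, Igfbp1, Pck1, Trib1) and of genes that sense bacterial products (Tlr2, Alpk1, Tifa). Points are mice and bars are means of 3 mice. GF chow mouse 1 (circle) is the highest GF chow mouse in all 8 panels, from 13.7, 10.7 and 12.8 CPM across the 3 mice for Tifa to 299, 93.0 and 44.9 CPM for Trib1, and ConvR chow mouse 3 (triangle) is the lowest ConvR chow mouse for Tlr2, Alpk1 and Tifa.

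Several receptors and adaptors for bacterial products were higher in ConvR livers, most of them in the mice with the most acute phase transcripts, ConvR mice 1 and 2. Tlr4, the receptor for lipopolysaccharide, stood at 4.29, 3.38 and 3.26 CPM in ConvR mice and 1.58, 1.66 and 1.26 CPM in GF mice. The 3 ConvR mice were alike and above every GF mouse (log2 fold change 1.29 ± 0.18, adjusted p = 0.00351, 2.44-fold). Without ConvR mice 1 and 2 the log2 fold change was 1.12 (adjusted p = 0.196). Tlr2, the receptor for bacterial lipoproteins, stood at 15.3, 30.7 and 4.64 CPM against 4.06, 2.23 and 2.27 CPM. ConvR mouse 2 was the highest and mouse 3 lay just above GF mouse 1 (log2 fold change 2.58 ± 0.52, adjusted p = 0.0195; adjusted p without ConvR 1 or ConvR 2 was 0.0665 and 0.101 in that order). The kinase Alpk1 and its adaptor Tifa form a pathway that responds to ADP-heptose, a sugar of gram-negative bacteria. Alpk1 stood at 12.5, 23.1 and 2.47 CPM against 2.06, 1.60 and 0.870 CPM (log2 fold change 3.10 ± 0.58, adjusted p = 0.0169), and Tifa at 68.2, 161 and 19.5 CPM against 13.7, 10.7 and 12.8 CPM (log2 fold change 2.74 ± 0.55, adjusted p = 0.0195). For both, ConvR mouse 2 was highest and mouse 3 only a little above the GF mice, with log2 fold changes of 0.74 and 0.66 without ConvR mice 1 and 2. The adjusted p without ConvR mouse 1 or 2 reached 0.0881 for Alpk1 and 0.101 for Tifa.

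Mavs, an adaptor of RNA sensors on mitochondria, stood at 104, 119 and 102 CPM in ConvR mice and 70.1, 80.4 and 79.2 CPM in GF mice. Its rise was small and alike in the 3 ConvR mice (log2 fold change 0.50 ± 0.10, adjusted p = 0.0194; adjusted p without ConvR 1 or ConvR 2 was 0.0571 and 0.101 in that order). Nlrp6, a sensor best known from the intestinal epithelium, went the other way, at 116, 102 and 132 CPM against 192, 151 and 182 CPM. Each ConvR mouse was below each GF mouse (log2 fold change -0.58 ± 0.11, adjusted p = 0.0193; adjusted p without ConvR 1 or ConvR 2 was 0.0709 and 0.101 in that order). Irak3, which damps Toll-like receptor signals, stood at 4.07, 6.15 and 2.41 CPM against 1.45, 1.54 and 0.870 CPM and was higher in all ConvR mice (log2 fold change 1.73 ± 0.35, adjusted p = 0.0199; adjusted p without ConvR 1 or ConvR 2 was 0.0701 and 0.102 in that order). Over the microbial sensing list, 7 of 47 tested members were higher, 1 was lower and 39 were not called, and the median was 0.41. That median was -0.02 without ConvR mice 1 and 2, when 0 members were called. Receptors of the inflammatory cytokine list were also higher, with 4 of 30 members called: Il1r1 (log2 fold change 2.13 ± 0.41, adjusted p = 0.0188), Osmr (log2 fold change 1.83 ± 0.40, adjusted p = 0.0276), Il13ra1 (log2 fold change 0.88 ± 0.19, adjusted p = 0.0269) and Il22ra1 (log2 fold change 1.46 ± 0.34, adjusted p = 0.0318). Il1r1 stood at 181, 173 and 33.8 CPM against 34.9, 27.8 and 26.1 CPM, so that its rise was seen in ConvR mice 1 and 2 and ConvR mouse 3 lay within the GF range. None of the 4 was called without ConvR mouse 1 or without ConvR mouse 2, and their adjusted p reached 0.0981, 0.131, 0.127 and 0.148. The list median was 0.49 and, without those mice, -0.17 with 0 members called.

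Chordc1 and Bag3, which work with the heat shock proteins Hsp90 and Hsp70 in protein folding, were the called members of the heat shock list. Chordc1 stood at 50.6, 45.3 and 39.0 CPM in ConvR mice and 26.7, 20.4 and 22.5 CPM in GF mice. The groups were apart, and ConvR mouse 3 exceeded every GF mouse (log2 fold change 0.96 ± 0.11, adjusted p = 0.000742, 1.94-fold). Bag3 stood at 44.8, 59.2 and 41.5 CPM in ConvR mice and 31.5, 22.6 and 22.1 CPM in GF mice. Here too no ConvR mouse fell within the GF range, and GF mouse 1 was the highest GF mouse (log2 fold change 0.94 ± 0.15, adjusted p = 0.00939). Both were called with any single mouse left out, and neither without ConvR mice 1 and 2 together (log2 fold changes 0.75 and 0.71, adjusted p = 0.0769 and 0.346). Of 19 tested members 2 were higher, 0 lower and 17 not called, with a median of 0.30. Without ConvR mice 1 and 2, 0 members were called and the median was 0.06, and without GF mouse 1, 9 members were higher and the median was 0.67. The value of that mouse is seen in Hsph1, a large chaperone of the Hsp110 class, which stood at 137, 176 and 89.0 CPM against 135, 49.5 and 38.6 CPM. GF mouse 1 reached the level of ConvR mouse 1 while the other GF mice stayed low (log2 fold change 0.85 ± 0.36, adjusted p = 0.17, and 1.62, adjusted p = 0.00894, without GF mouse 1).

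Heat shock genes are known to be switched on by the factor HSF1, which binds repeats of GAA in alternating direction near the start site. The promoters of both called members are shown because each holds such a repeat close to the start of transcription, which bears on no measurement of binding here. They are taken from RefSeq on GRCm38.p6, from 250 bases before to 50 after the start, 5′ to 3′ on the strand of the gene, and capitals mark the matches. Chordc1 lies on the plus strand (chr9:18292017-18292316) and Bag3 on the plus strand (chr7:128523333-128523632).
Chordc1: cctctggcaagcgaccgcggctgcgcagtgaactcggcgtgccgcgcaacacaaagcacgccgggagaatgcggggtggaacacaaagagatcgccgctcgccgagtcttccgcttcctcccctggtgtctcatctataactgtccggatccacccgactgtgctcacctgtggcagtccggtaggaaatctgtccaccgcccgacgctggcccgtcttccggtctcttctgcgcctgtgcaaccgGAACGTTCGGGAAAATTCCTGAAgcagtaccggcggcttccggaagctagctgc
Bag3: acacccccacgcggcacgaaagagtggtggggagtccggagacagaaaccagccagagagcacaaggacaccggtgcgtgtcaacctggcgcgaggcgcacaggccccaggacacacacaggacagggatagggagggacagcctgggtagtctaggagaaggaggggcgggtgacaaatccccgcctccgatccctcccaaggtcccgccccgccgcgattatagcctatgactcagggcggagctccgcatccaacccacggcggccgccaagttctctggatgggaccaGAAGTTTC
The search was for GAANNTTC, which reads the same on both strands, and for the longer GAANNTTCNNGAA with its reverse complement TTCNNGAANNTTC, which contains the shorter motif. Counted as distance from the start site, Chordc1 had 2 matches of the short motif, beginning at -4 and 6, and 3 overlapping matches of the long one. Bag3 had 1 match of the short motif, beginning at 42, and 0 of the long one in this window. Of the 19 genes of the heat shock list 14 had a promoter entry. Among these 11 held the short motif and 4 the long one (Chordc1, Hspd1, Hspe1 and Hsph1). Over all 32851 promoters of the table the short motif occurred in 7.86% and the long one in 0.603%. Hspd1 and Hspe1, the mitochondrial chaperonins, held the long motif and were not called (intervals -0.39 to 0.03 and -0.23 to 0.23, adjusted p = 0.271 and 0.99).

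The largest increases outside the acute phase list included transporters of amino acids and citrate and a chemokine. Slc3a1, the heavy subunit of the cystine and dibasic amino acid transporter, stood at 233, 288 and 79.7 CPM in ConvR mice and 37.2, 35.5 and 24.6 CPM in GF mice. Every ConvR mouse was above the GF range, mouse 3 by the least (log2 fold change 2.63 ± 0.38, adjusted p = 0.00476, and 1.30, adjusted p = 0.311, without ConvR mice 1 and 2). Isyna1, which makes inositol phosphate from glucose 6-phosphate, stood at 37.0, 46.8 and 5.73 CPM against 3.85, 2.57 and 2.08 CPM. It followed the same order among ConvR mice (log2 fold change 3.42 ± 0.55, adjusted p = 0.00939, and 1.03, adjusted p = 0.461, without ConvR mice 1 and 2). The chemokine Cxcl14 stood at 17.1, 19.8 and 2.53 CPM against 1.38, 0.686 and 1.21 CPM, with ConvR mouse 3 close to the GF mice (log2 fold change 3.59 ± 0.55, adjusted p = 0.00745, and 1.22, adjusted p = 0.373, without ConvR mice 1 and 2). The citrate transporter Slc13a5 stood at 11.9, 17.7 and 1.57 CPM against 1.45, 0.914 and 0.242 CPM (log2 fold change 3.65 ± 0.71, adjusted p = 0.0193), and the synaptotagmin Syt12 at 9.07, 10.2 and 2.05 CPM against 1.51, 1.08 and 0.919 CPM (log2 fold change 2.62 ± 0.46, adjusted p = 0.013). For these 2 genes ConvR mouse 3 lay just above the highest GF mouse. Slc13a5 and Syt12 were not called without ConvR mouse 1 or 2, with adjusted p up to 0.0981 and 0.0711.

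Further genes called with each mouse left out encode membrane proteins, a peroxidase, enzymes of fatty acid derivatives and a splicing factor. Golm1, a Golgi membrane protein, stood at 6.05, 6.33 and 4.88 CPM in ConvR mice and 2.55, 2.46 and 2.08 CPM in GF mice, 3 against 3 without overlap (log2 fold change 1.29 ± 0.18, adjusted p = 0.00422). Slc35e3, a protein of the nucleotide sugar transporter family, stood at 33.7, 40.9 and 28.1 CPM against 13.4, 16.1 and 19.4 CPM (log2 fold change 1.06 ± 0.15, adjusted p = 0.00422). Among the genes that were lower, Gpx6 encodes a glutathione peroxidase and stood at 0.275, 0.362 and 0.422 CPM against 2.27, 3.71 and 4.06 CPM. Its level was low in all mice and yet apart between the groups (log2 fold change -3.24 ± 0.43, adjusted p = 0.00286). The splicing factor Srsf5 stood at 77.0, 67.6 and 93.4 CPM against 129, 134 and 138 CPM (log2 fold change -0.76 ± 0.11, adjusted p = 0.00562), and Faah, which breaks down endocannabinoids and other fatty acid amides, at 87.6, 86.2 and 98.7 CPM against 135, 127 and 122 CPM (log2 fold change -0.50 ± 0.08, adjusted p = 0.00939). Acad10, an acyl-CoA dehydrogenase, stood at 20.5, 16.5 and 26.5 CPM against 35.6, 38.0 and 42.1 CPM (log2 fold change -0.87 ± 0.14, adjusted p = 0.00939, and -0.55, adjusted p = 0.371, without ConvR mice 1 and 2). Eepd1, a nuclease-related protein, stood at 14.3, 11 and 15.9 CPM against 21.2, 21.6 and 21.0 CPM (log2 fold change -0.63 ± 0.11, adjusted p = 0.0132). None of Golm1, Slc35e3, Gpx6, Srsf5, Faah and Eepd1 was called without ConvR mice 1 and 2, with log2 fold changes of 1.05, 0.78, -2.99, -0.52, -0.38 and -0.43. In each of these genes all 3 ConvR mice were on 1 side of all 3 GF mice, which the choice of genes called with each mouse left out favours. Krt23, a keratin of epithelia, was among the largest decreases and stood at 0.660, 0.422 and 0.724 CPM against 5.37, 3.48 and 3.09 CPM (log2 fold change -2.70 ± 0.47, adjusted p = 0.013; adjusted p without ConvR 1 or ConvR 2 was 0.0571 and 0.0864 in that order). Hsd17b6, a steroid dehydrogenase, stood at 18.1, 12.7 and 53.5 CPM against 136, 92.7 and 78.0 CPM, with ConvR mouse 3 nearest to the GF mice (log2 fold change -1.86 ± 0.42, adjusted p = 0.0282; adjusted p without ConvR 1, ConvR 2 or GF 1 was 0.12, 0.114 and 0.068 in that order).

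The rest of the genes called higher with each mouse left out are given next, a choice that itself favours groups that stand apart. Sgce, the epsilon subunit of the sarcoglycan complex of cell membranes, stood at 4.62, 5.42 and 4.83 CPM in ConvR mice and 1.10, 2.46 and 1.64 CPM in GF mice (log2 fold change 1.50 ± 0.24, adjusted p = 0.00939). The ConvR mice were alike, and the log2 fold change was 1.46 without ConvR mice 1 and 2. Ptgr1, a reductase of prostaglandins and leukotrienes, stood at 4.78, 4.04 and 4.46 CPM against 2.34, 2.17 and 1.45 CPM and was likewise even among the ConvR mice (log2 fold change 1.17 ± 0.19, adjusted p = 0.0096, and 1.18 without ConvR mice 1 and 2). Dynll1, a light chain of the motor dynein, stood at 32.2, 46.4 and 24.6 CPM against 16.0, 16.1 and 13.4 CPM (log2 fold change 1.18 ± 0.18, adjusted p = 0.00745), and Msrb3, which repairs oxidized methionine, at 19.5, 20.0 and 14.0 CPM against 8.81, 10.4 and 9.14 CPM (log2 fold change 0.91 ± 0.14, adjusted p = 0.00612). Their log2 fold changes without ConvR mice 1 and 2 were 0.69 and 0.56. Both were lowest in mouse 3 among the ConvR mice, as were Reep5, which shapes the endoplasmic reticulum (log2 fold change 0.93 ± 0.15, adjusted p = 0.00939), the semaphorin Sema6b (log2 fold change 0.95 ± 0.16, adjusted p = 0.00939) and the carboxypeptidase Prcp (log2 fold change 1.02 ± 0.17, adjusted p = 0.0096). Mmd2 was scarce in every mouse, at 6.10, 3.62 and 1.33 CPM against 0.275, 0.343 and 0.0967 CPM. Its ranges did not overlap and its fold change was large (log2 fold change 3.98 ± 0.62, adjusted p = 0.00856, and 2.50, adjusted p = 0.369, without ConvR mice 1 and 2).

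In whole liver, fewer cells of a type and less RNA per cell cannot be told apart. Prtn3, a protease of neutrophil granules, had the largest increase outside the acute phase list among genes of at least 2 CPM on average, at 20.9, 21.9 and 1.57 CPM in ConvR mice and 0.344, 0.343 and 0.145 CPM in GF mice. ConvR mice 1 and 2 were far above mouse 3, and mouse 3 was above every GF mouse (log2 fold change 5.76 ± 0.92, adjusted p = 0.00939, and 2.52, adjusted p = 0.48, without ConvR mice 1 and 2). Ctsc, the cathepsin that activates such proteases, stood at 94.6, 129 and 64.0 CPM against 29.2, 38.3 and 38.3 CPM with no overlap (log2 fold change 1.44 ± 0.19, adjusted p = 0.00314, and 0.86, adjusted p = 0.121, without ConvR mice 1 and 2). Of 7 tested neutrophil markers 2, Prtn3 itself and S100a8, were higher (28.6%, beside 2.55% of all genes). All 7 had a log2 fold change above 0 and their median was 1.89. Of the 14 markers 13 were among the genes listed, and those not tested failed the filter on low counts. A scarce marker could pass that filter through the mice where it was high, and Prtn3 was picked for its rise. The shared direction is therefore no separate support. The neutrophil markers, Prtn3 among them, summed to 59.6, 76.4 and 12.8 CPM in ConvR mice and 19.6, 12.3 and 8.99 CPM in GF mice, with 0 markers at 0 in all 6 libraries. Without ConvR mice 1 and 2 the median was -0.02. Among Kupffer cell markers 2 of 17 were higher (11.8%, beside 2.55% of all genes), Cd163 (log2 fold change 1.12 ± 0.22, adjusted p = 0.0195) and Cd68 (log2 fold change 0.74 ± 0.19, adjusted p = 0.0439). All 17 had a log2 fold change above 0, beside 49.5% of all genes, with a median of 0.34 and of 0.39 without ConvR mice 1 and 2. Kupffer cell markers summed to 802, 959 and 894 CPM in ConvR mice and 740.2, 658 and 677 CPM in GF mice, so that each ConvR mouse exceeded each GF mouse. Both calls were lost without ConvR mouse 1 or 2 (adjusted p up to 0.101 for Cd163 and 0.189 for Cd68). Markers of monocytes and recruited macrophages summed to 257, 269 and 200.1 CPM and 177, 174 and 170.2 CPM, with 1 of 11 higher, Ccr2 (log2 fold change 1.84 ± 0.45, adjusted p = 0.0359), a call lost in 5 of the 6 fits that left out 1 mouse (up to 0.149). Tlr4 and Tlr2 are also transcripts of such cells, and the part of these cells in the differences above was not tested. Markers of T and NK cells, B and plasma cells, sinusoidal endothelium, adipocytes and red blood cells had 0 members called. Of 12 markers of the exocrine pancreas 8 were at 0 in all 6 libraries, 2 were tested and 1, Cela1, was lower (log2 fold change -0.97 ± 0.25, adjusted p = 0.0417).

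Secreted proteins of the complement system, of clotting and of the matrix also held called genes. Of 31 complement genes 3 were higher (9.68%, beside 2.55% of all genes) and 0 lower, with a median of 0.25 and of -0.06 without ConvR mice 1 and 2. C4bp, which binds complement factor C4b, stood at 857, 909 and 589.9 CPM in ConvR mice and 514, 537 and 514 CPM in GF mice. ConvR mice 1 and 2 were well above mouse 3, which exceeded the GF mice by less (log2 fold change 0.59 ± 0.13, adjusted p = 0.0273; adjusted p without ConvR 1, ConvR 2 or GF 1 was 0.112, 0.127 and 0.0551 in that order). Cd55, a regulator on the cell surface, stood at 17.9, 19.5 and 18.6 CPM against 10.8, 13.2 and 12.8 CPM with all ConvR mice alike (log2 fold change 0.60 ± 0.13, adjusted p = 0.0264; adjusted p without ConvR 1, ConvR 2 or GF 1 was 0.0709, 0.107 and 0.0586 in that order). Of 33 clotting genes 2 were higher, Serpina10 (log2 fold change 1.33 ± 0.31, adjusted p = 0.0326) and Cpb2 (log2 fold change 1.04 ± 0.21, adjusted p = 0.0195), and 3 were lower, among them F11 and Proc. The called members were 15.2% of that list, beside 4.72% of all genes. F11, the clotting factor XI, stood at 80.7, 74.3 and 70.4 CPM against 112, 119 and 96.8 CPM, with no overlap (log2 fold change -0.54 ± 0.11, adjusted p = 0.0228; adjusted p without ConvR 1, ConvR 2 or GF 1 was 0.0673, 0.101 and 0.0512 in that order). Of 40 matrix and stellate cell genes 3 were higher (7.5%, beside 2.55% of all genes), Dcn (log2 fold change 0.53 ± 0.13, adjusted p = 0.0372), Lum (log2 fold change 1.23 ± 0.28, adjusted p = 0.0285) and Gas6 (log2 fold change 1.58 ± 0.35, adjusted p = 0.0282), and 0 were lower. Lum, a small proteoglycan, stood at 13.4, 12.7 and 10.7 CPM against 2.34, 8.17 and 5.03 CPM. The GF mice varied more among themselves than the ConvR mice did and all lay below them. Serpina10, Cpb2, Dcn, Lum and Gas6 were not called without ConvR mouse 1 or 2, with adjusted p up to 0.153, 0.101, 0.141, 0.111 and 0.135.

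Of the stress response, NRF2 and transporter lists 7.32%, 6.67% and 11.6% of the tested members were called, beside 4.72% of all genes. Asns, which makes asparagine and is a target of the amino acid response, stood at 20.1, 21.6 and 10.1 CPM in ConvR mice and 2.68, 4.68 and 7.69 CPM in GF mice. Every ConvR mouse was above the GF mice, mouse 3 by the least (log2 fold change 1.76 ± 0.39, adjusted p = 0.0279; adjusted p without ConvR 1, ConvR 2, GF 1 or GF 2 was 0.109, 0.123, 0.0586 and 0.0543 in that order). Dnajb9, a chaperone of the endoplasmic reticulum, stood at 78.0, 53.2 and 64.6 CPM against 31.6, 38.7 and 44.4 CPM, and mouse 3 lay between the other ConvR mice (log2 fold change 0.77 ± 0.17, adjusted p = 0.0282; adjusted p without ConvR 1, ConvR 2 or GF 1 was 0.121, 0.0529 and 0.068 in that order). With the pseudokinase Trib3, which was lower (log2 fold change -1.31 ± 0.29, adjusted p = 0.0282), they were the called genes among 41 of the stress response, whose median was -0.02. In the NRF2 and redox list 1 of 30 genes was higher, the heme oxygenase Hmox1 (log2 fold change 0.95 ± 0.24, adjusted p = 0.0384), and 1 was lower, the peroxiredoxin Prdx6 (log2 fold change -0.45 ± 0.11, adjusted p = 0.0351). Of 43 transporters of ions and nutrients 3 were higher (Slc13a3, Slc13a5 and Slc17a1) and 2 were lower. The lower ones were the mitochondrial carrier Slc25a25 (log2 fold change -1.65 ± 0.40, adjusted p = 0.0356) and the cationic amino acid transporter Slc7a2 (log2 fold change -0.78 ± 0.21, adjusted p = 0.046). Slc25a25 stood at 145, 132 and 104 CPM against 759.9, 269.6 and 164 CPM, so that GF mouse 1 was far above all others. Trib3, Hmox1, Prdx6, Slc25a25 and Slc7a2 lost their calls without ConvR mouse 1 or 2, with adjusted p up to 0.114, 0.183, 0.154, 0.138 and 0.152.

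Cholesterol and fatty acid synthesis showed no called gene. Of 26 tested genes of cholesterol synthesis 0 were higher and 0 lower, with a median of -0.23. Of 23 genes of fatty acid synthesis 0 were called, with a median of -0.05. Srebf1, the regulator of that pathway, stood at 196, 122 and 247 CPM in ConvR mice and 208, 293 and 299 CPM in GF mice (interval -1.14 to 0.13, adjusted p = 0.321). Ppara, the receptor that drives fatty acid oxidation, stood at 223, 166 and 207 CPM against 144, 195 and 216 CPM (interval -0.23 to 0.44, adjusted p = 0.717). The interval of Srebf1 leaves room for a change of more than 1.5-fold, so that such a change was not detectable here rather than absent. In the fatty acid oxidation list 2 of 41 members were lower, Echs1 (log2 fold change -0.43 ± 0.10, adjusted p = 0.0311) and Bdh1 (log2 fold change -0.75 ± 0.17, adjusted p = 0.0316), and 1 was higher, the uncoupling protein Ucp2 (log2 fold change 0.80 ± 0.19, adjusted p = 0.0337). These 3 calls were 7.32% of the list, beside 4.72% of all genes. None of the 3 was called without ConvR mouse 1 or 2 or GF mouse 1, with adjusted p up to 0.138, 0.124 and 0.153. Lpl, the lipoprotein lipase, stood at 22.2, 16.6 and 21.8 CPM against 35.5, 38.2 and 34.5 CPM, with every ConvR mouse below every GF mouse (log2 fold change -0.84 ± 0.15, adjusted p = 0.0147; adjusted p without ConvR 2 was 0.0909). Abcg1, which exports cholesterol from cells, stood at 7.31, 7.23 and 6.51 CPM against 3.85, 4.74 and 4.35 CPM and was higher in all ConvR mice (log2 fold change 0.70 ± 0.14, adjusted p = 0.0195; adjusted p without ConvR 1 or ConvR 2 was 0.0773 and 0.101 in that order). Plin4, a protein of lipid droplets, stood at 9.29, 11.7 and 7.72 CPM against 2.75, 2.17 and 3.24 CPM, with all ConvR mice well above the GF mice (log2 fold change 1.80 ± 0.34, adjusted p = 0.0179; adjusted p without ConvR 1 or ConvR 2 was 0.0571 and 0.0919 in that order).

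Among 29 tested clock genes 2 were higher and 1 lower (10.3% called, beside 4.72% of all genes). The lower one was Cry2, a repressor of the clock, at 23.8, 14.1 and 14.1 CPM in ConvR mice and 28.7, 26.6 and 31.3 CPM in GF mice. ConvR mouse 1 lay nearest to the GF mice, and the gene was called with ConvR mouse 3 as the only ConvR mouse (log2 fold change -0.73 ± 0.16, adjusted p = 0.0273, and -1.03, adjusted p = 0.0145, without ConvR mice 1 and 2; adjusted p without ConvR 2, GF 1 or GF 3 was 0.127, 0.0531 and 0.0514 in that order). Tsku, a secreted protein whose transcript cycles in liver, stood at 118, 118 and 113 CPM against 12.9, 29.7 and 61.6 CPM. The ConvR mice were alike while the GF mice spread widely below them (log2 fold change 1.73 ± 0.37, adjusted p = 0.0237; adjusted p without ConvR 1, ConvR 2 or GF 2 was 0.0728, 0.101 and 0.0521 in that order). Lists with no call in either direction included interferon response (44 genes tested), MHC class I and II presentation (27), histone acetylation (36) and male-biased genes (30). The median of the interferon list was -0.14, that of MHC genes -0.01 and that of histone acetylation genes -0.14. Of 75 respiratory chain genes 3 were lower (4%, beside 2.17% of all genes) and 0 higher. A log2 fold change below 0 was seen in 73 of them, while 49.5% of all genes were above 0. Their median was -0.25, with -0.08 without ConvR mice 1 and 2 and -0.14 after removal of the trend of each library with gene length. A gene's length and its expression relative to the other libraries had rank correlations that differed among the 6 mice. They were 0.018, -0.084 and -0.312 in ConvR mice 1, 2 and 3 and -0.154, -0.172 and -0.341 in GF mice 1, 2 and 3. ConvR mice 1 and 2 thus also stood apart in this trend.

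**Figure D3:**
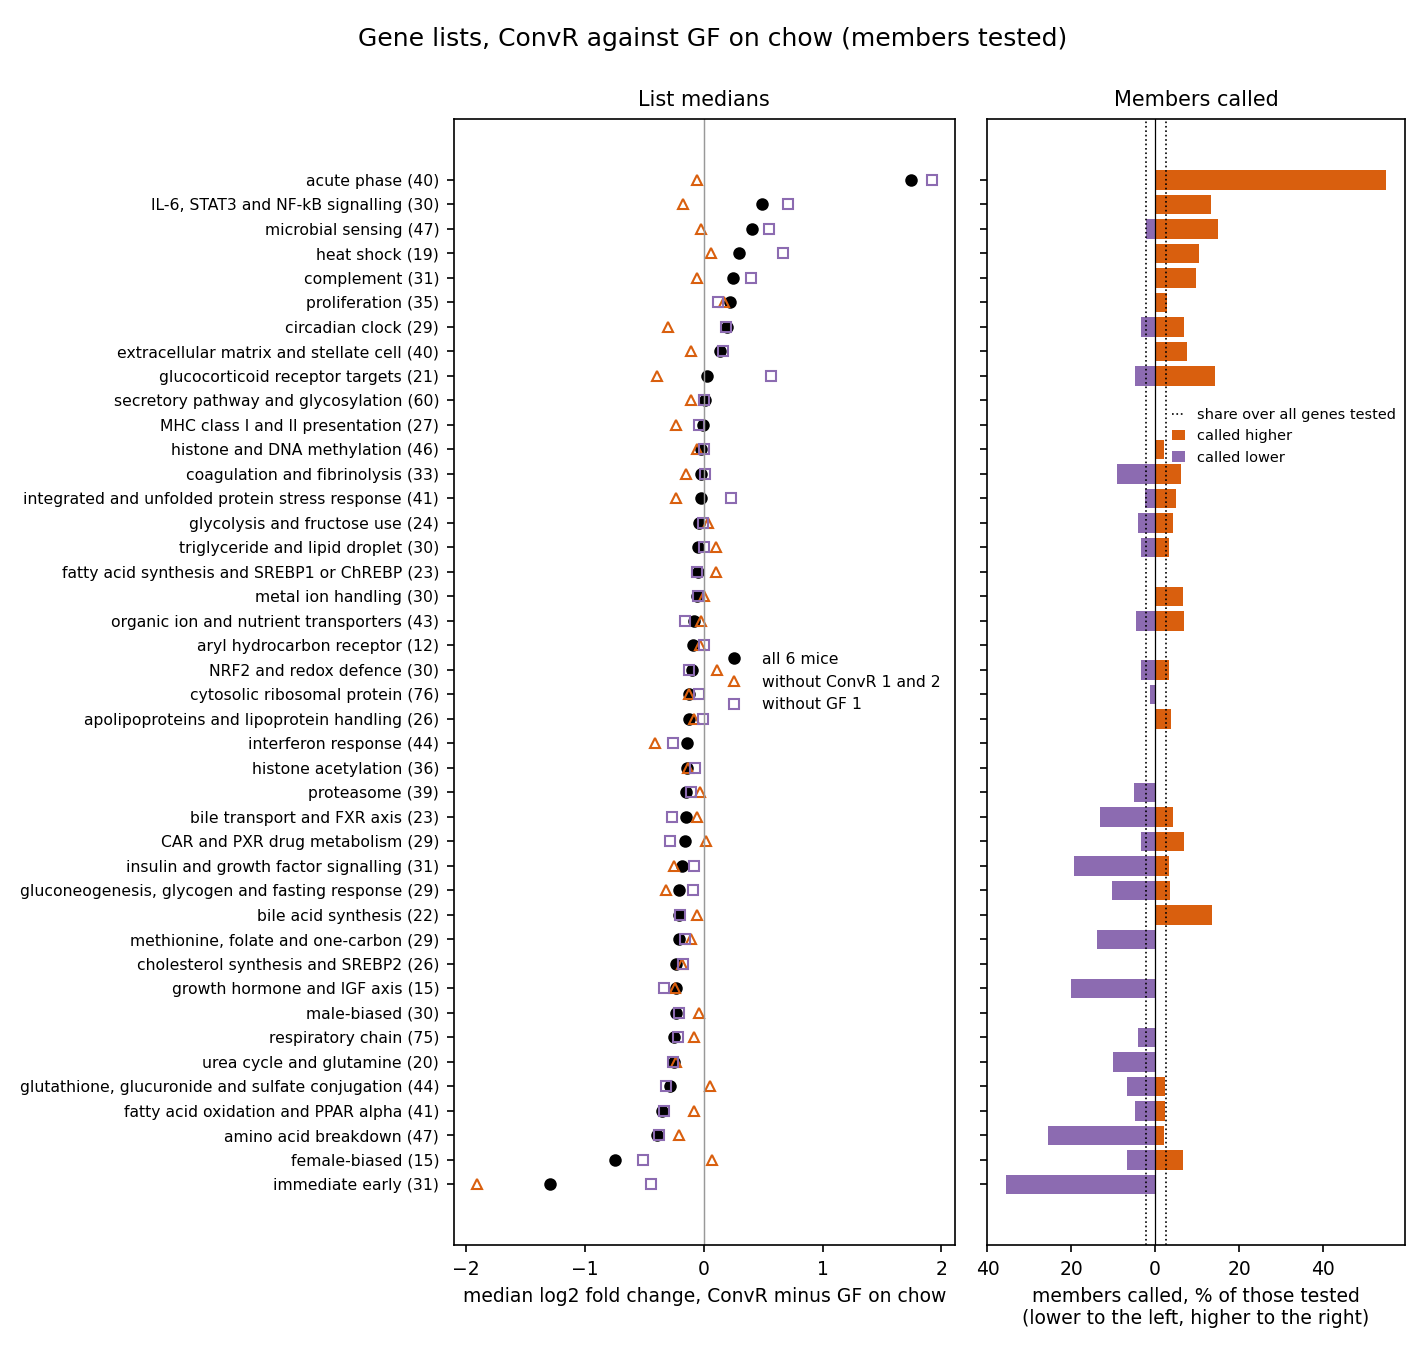
Left, median log2 fold change (ConvR minus GF on chow) of each function list, with the number of genes tested in brackets, for all 6 mice (black), without ConvR mice 1 and 2 (orange triangles) and without GF mouse 1 (purple squares). Right, percent of the tested members called higher (to the right) or lower (to the left), with dotted lines at the shares of all genes, 2.55% and 2.17%; the black dot and the triangle lie far apart for the acute phase list (1.74 and -0.06) and nearer for amino acid breakdown (-0.39 and -0.21).

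ConvR mouse 3 gave an uneven view of the 584 called genes. Its difference from the GF mean, as a share of the difference in the mean of ConvR mice 1 and 2 on the log2 CPM scale, had a median of 0.625. For genes called higher the median share was 0.556 and for genes called lower 0.666. It was below 0.5 for 201 genes, between 0.5 and 1 for 277 and 1 or more for 106, and it was below 0 for 9 of the 201. Il1r1, Lbp, Tifa and Alpk1 were among those with a low share: for Tifa the difference was 3.08 in mice 1 and 2 and 0.66 in mouse 3. For Csad it was 1.71 and 2.57, and for Cyp3a11 1.87 and 2.97, larger in mouse 3. Cyp39a1 (2.23 and 2.05) and Spry4 (-1.89 and -1.71) differed little between the mice. Against the 3 GF mice, ConvR mouse 3 alone gave the 12 calls noted above, 8 higher and 4 lower, in a fit that takes this lone mouse to vary like the other groups. Of these 11 were also called with all 6 mice and 5 were acute phase genes. The other 7 were Cyp3a11, Csad and Cyp39a1, which were higher, and Cry2, Dmgdh, Amd2 and Spry4, which were lower. With GF mouse 1 left out as well, Cyp39a1, Amd2 and Spry4 were no longer called. Genes called in that setting included Chordc1, Bag3, Cyp3a11, Csad, Cry2, Dmgdh and Pck1.

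**Figure D4:**
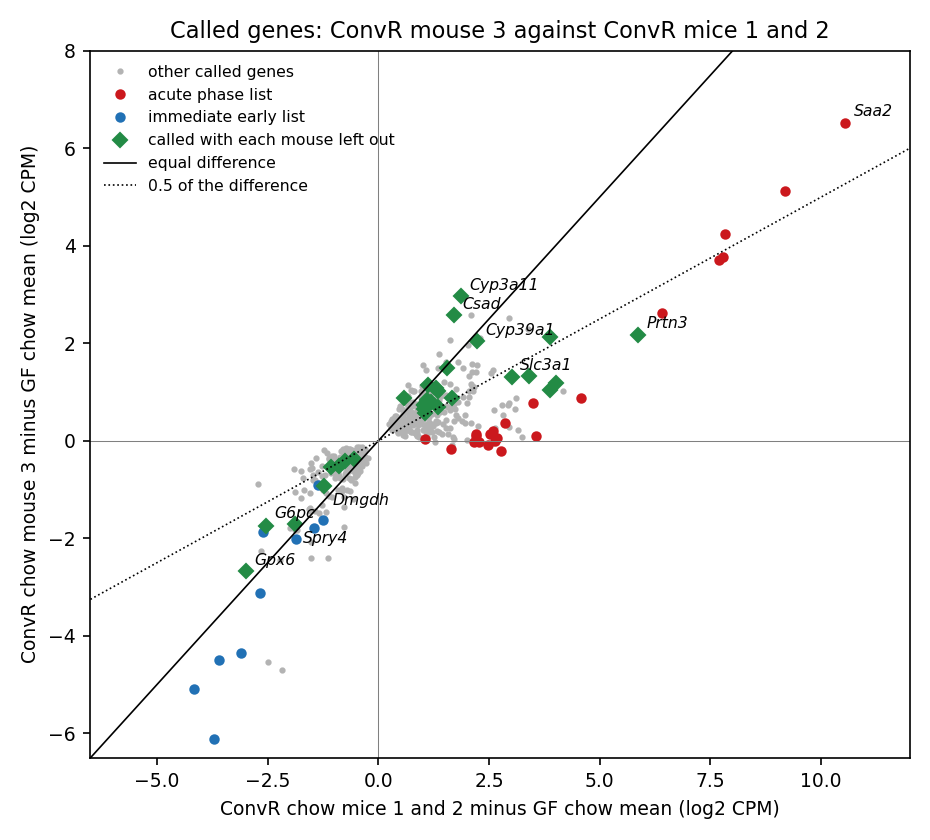
Difference from the GF chow mean in log2 CPM of each of the 584 called genes, in ConvR mice 1 and 2 (x axis) and in ConvR mouse 3 (y axis). Green diamonds are the 30 genes called with each mouse left out and 1 predicted gene, outside the acute phase (red) and immediate early (blue) lists, the solid line marks equal differences and the dotted line 0.5 of the difference; Cyp3a11 and Csad lie above the solid line, Cyp39a1 and Spry4 close to it, and red points mostly nearer to the x axis than the dotted line.

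The same contrast was measured in 6 other mice, ConvR and GF mice on HF/HS, whose group means share no library with the chow comparison. The spread was estimated over all 15 libraries for both contrasts, so that their p values are not fully separate. There 200 genes were called (1.62%), 109 higher and 91 lower, and 16 without GF mouse 2 on that diet. The share of higher genes among these calls was 54.5%, and it was 93.5% without normalization factors and 93.8% with the authors' TPM values. Both diets called 42 genes (0.339% of those tested), which is 7.19% of the chow calls and 21.0% of the HF/HS calls. All 42 had the same direction on both diets, 22 higher and 20 lower in ConvR livers. Over the 584 chow calls 76.7% had the same sign on HF/HS, beside 59.7% of all genes tested.

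Of the 30 genes called on chow with each mouse left out, 6 were called on HF/HS: Cyp39a1, Csad, Slc35e3, Dmgdh, Spry4 and Gpx6. Csad stood at 72.8, 149 and 162 CPM in ConvR and 34.5, 31.5 and 36.7 CPM in GF mice on HF/HS (log2 fold change 1.90 ± 0.35, adjusted p = 0.0166). All 3 ConvR mice were again above all 3 GF mice, at a lower level than on chow. Cyp39a1 stood at 23.7, 24.7 and 18.2 CPM and 12.7, 12.9 and 11.3 CPM (log2 fold change 0.85 ± 0.19, adjusted p = 0.043). All 3 GF mice on HF/HS lay above all 3 ConvR mice on chow. Dmgdh stood at 547, 447 and 519 CPM and 711, 722 and 779.8 CPM (log2 fold change -0.55 ± 0.11, adjusted p = 0.0297), and Spry4 at 7.17, 5.49 and 5.28 CPM and 9.57, 11.7 and 12.5 CPM (-0.91 ± 0.18, adjusted p = 0.0249). Both kept the groups apart. Gpx6 stood at 1.04, 1.68 and 0.773 CPM and 9.01, 5.83 and 4.66 CPM (-2.49 ± 0.33, adjusted p = 0.00338). The remaining gene, Slc35e3, had a log2 fold change of 0.74 ± 0.15 (adjusted p = 0.027). In all 30 the absolute log2 fold change was smaller on HF/HS than on chow, and 26 had the same sign, values that describe genes chosen for their chow difference.

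Other genes called on both diets included Plin4, with 26.0, 54.2 and 22.4 CPM in ConvR and 8.40, 5.15 and 5.18 CPM in GF mice on HF/HS (log2 fold change 2.45 ± 0.30, adjusted p = 0.00281). The groups were further apart than on chow. Tsku stood at 68.9, 89.6 and 89.8 CPM and 18.6, 12.0 and 16.4 CPM (2.40 ± 0.38, adjusted p = 0.00762), and the homeobox gene Lhx6 at 8.25, 8.11 and 8.60 CPM and 4.50, 3.42 and 2.91 CPM (1.2 ± 0.24, adjusted p = 0.0249). Ucp2 (0.89 ± 0.19, adjusted p = 0.0305), the monoamine oxidase Maoa (0.61 ± 0.13, adjusted p = 0.0305) and the prostaglandin synthase Ptges (1.81 ± 0.39, adjusted p = 0.0326) were higher as well. Among genes lower on both diets were Igfbp2 (-1.22 ± 0.27, adjusted p = 0.0359), Nlrp6 (-0.52 ± 0.11, adjusted p = 0.0349) and Agxt, the alanine-glyoxylate aminotransferase (-0.91 ± 0.21, adjusted p = 0.0447). The coagulation factor F11 (-0.92 ± 0.11, adjusted p = 0.00281), the thiamine transporter Slc19a2 (-0.57 ± 0.12, adjusted p = 0.0355) and Pde4b, a phosphodiesterase of cyclic AMP (-1.11 ± 0.22, adjusted p = 0.0223), were lower too. Their chow values were -0.54 ± 0.11, -0.57 ± 0.12 and -1.22 ± 0.22 in that order. Of the 12 genes of this paragraph none was called on chow in all fits that left out 1 mouse: Maoa lost its call without ConvR mouse 1 (adjusted p = 0.0665), and the others without ConvR mouse 1 and without ConvR mouse 2. They were picked after their values were seen.

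**Figure D5:**
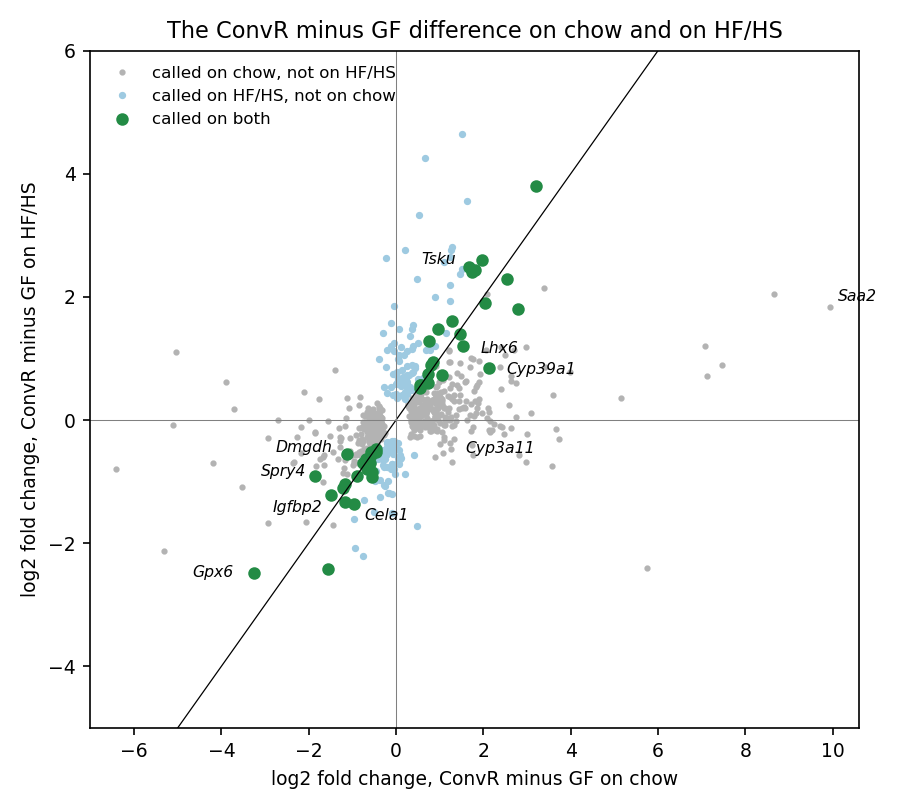
Log2 fold change of ConvR minus GF on chow (x axis) and on HF/HS (y axis) for every gene called on either diet, with the line of equal values. The 42 genes called on both (green) lie in the upper right (22) and lower left (20) parts of the plot, while Cyp3a11 (x 2.25) lies close to 0 on HF/HS.

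Cyp3a11 was among the genes whose chow difference was not seen on HF/HS, with 815, 1146 and 734 CPM in ConvR and 826, 1004 and 996 CPM in GF mice (log2 fold change -0.07 ± 0.32, adjusted p = 0.954). The difference between the diets was 2.32 ± 0.46 on the log2 scale and was not called (adjusted p = 0.0974). Tlr4 had the smallest adjusted p of all genes for this difference, 0.0503, with a size of 1.38 ± 0.24. Its HF/HS mice stood at 3.24, 2.87 and 2.91 CPM and 3.19, 3.47 and 2.97 CPM, so that both HF/HS groups lay above the GF mice on chow. By edgeR 0 of 12377 genes were called for the interaction (0%), with 1573 at an unadjusted p below 0.05, while DESeq2 called 150 and limma-voom 0. Without ConvR mouse 3 on chow 436 genes were called, and without ConvR mouse 3 on HF/HS 21. No difference above is therefore called particular to chow.

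ConvD mice on chow were measured beside the same GF mice, so their values are only set side by side. Cyp39a1 stood at 8.71, 10.2 and 9.43 CPM in ConvD mice 1, 2 and 3, Csad at 442, 268 and 336 CPM and Plin4 at 11.6, 10.5 and 9.26 CPM. These lay within or near the ConvR levels given above. Dmgdh stood at 542, 596 and 529 CPM and Spry4 at 5.37, 8.40 and 5.99 CPM, between the ConvR and the GF mice. By contrast G6pc stood at 615, 843 and 812 CPM, within the GF range, and Slc3a1 at 34.5, 40.9 and 46.9 CPM and Cxcl14 at 1.18, 0.949 and 1.11 CPM, close to the GF mice. Alpk1 stood at 1.50, 1.54 and 1.28 CPM and Tlr2 at 1.94, 2.89 and 3.83 CPM, also at the GF level.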

How the data were processed

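Liver polyadenylated RNA was sequenced from stranded libraries, 1 per mouse. Per the submitters' processing notes, the authors used Bowtie2, the mouse build mm9 and RSEM 1.2.23; how strand was set in counting is not given in the sources used here. The deposited expected counts are RSEM's estimates of the reads of each gene and need not be whole. TPM and FPKM are the authors' values per length and depth within a library, and of these FPKM was not used. The deposited gene lengths served for the length trend. Each file listed 20325 genes by symbol, of which 4014 had no count in any library, and 2 files in another row order were realigned by symbol.

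Expected counts were rounded, filtered with edgeR 4.0.16 (filterByExpr, minimum count 10) and scaled by TMM. All 15 libraries entered 1 model with a mean per group (10 residual degrees of freedom, biological coefficient of variation 0.149), in R 4.3.3. The two-sided quasi-likelihood F test was adjusted over all 12377 genes by the Benjamini-Hochberg method, at 0.05. Standard errors were obtained by dividing the size of the log2 fold change by the root of its F statistic, intervals cover 95%, and log2 CPM used a prior count of 2. P-values measure the spread within the groups over all 15 mice, not that of the 6 compared mice alone. The script was tested on simulated data for this comparison: of 12276 genes tested, 83 of 100 changed by 2-fold and 100 of 100 changed by 4-fold were called, with 5 unchanged genes. The changed genes were drawn only from those with a mean of at least 2 CPM, so scarcer genes were not covered. In the simulation the mice of a group shared 1 mean per gene, so that no mouse stood apart as ConvR mice 1 and 2 and GF mouse 1 did. These rates therefore need not hold for the real comparison.

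Named genes were the 10 largest increases and 10 largest decreases among calls whose groups did not overlap and whose mean reached 2 CPM. To these were added the 8 smallest p each way among genes called with each mouse left out, up to 4 members of each list by p, and Cyp7a1, Cyp8b1, Srebf1, Ppara, Nr1i2, Nr1h4 and Pck1. Acute phase, immediate early, predicted and small RNA genes were passed over, and some genes that met these rules are not reported here. Other genes in the text were named after their values were seen. The mice, the 42 function and 12 marker lists and the tests were chosen with earlier results of these data known. Of 1639 list entries, 1597 matched by symbol, 31 by synonym and 11 did not. RSEM divides reads among near copies, so levels in the Cyp3a, Cyp2c, Acnat and Gst families are uncertain. Promoters came from RefSeq on GRCm38.p6.

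Alternatives were DESeq2 1.42.0 (Wald test, or its size factors in edgeR), limma 3.58.1 (voom, or trend on log2(TPM + 1), on which folds of low genes are understated), no normalization factors, no filter, a stricter filter (mean of 1 CPM), removal of each library's trend on gene length (lowess span 0.5), the compared libraries alone, the replicate number as a block, each library left out, and ConvR mice 1 and 2 left out with or without GF mouse 1.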

Additional observations from a re-analysis of the deposited data

How the results depend on the processing

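Every named gene that was called kept its direction in each setting run, except Fkbp5, whose log2 fold change was -0.03 without ConvR mice 1 and 2 and GF mouse 1. Of the 160 named genes called, the DESeq2 Wald test and the DESeq2 size factors called 160, limma-voom 115 and limma-trend on TPM 133. The 584 genes called on chow became 1044 by the DESeq2 Wald test, 937 on TPM, 381 by limma-voom, 0 with the compared libraries alone, 12 without ConvR mice 1 and 2, and 14 without these and GF mouse 1. Leaving out 1 mouse gave 46 to 1655 calls. The 200 calls on HF/HS became 515 by the DESeq2 Wald test, 457 with the compared libraries alone, 791 on TPM and 765 with no normalization factors, and leaving out 1 mouse gave 16 to 280. For the interaction, 0 calls became 150 by the DESeq2 Wald test, 1192 on TPM, 2 with no filter and 6 with no normalization factors, and leaving out 1 mouse gave 0 to 436. The cause of these shifts was not tested, other than that fewer libraries enter the fits that leave some out. Over all genes the median was -0.10 on TPM and -0.05 with no normalization factors, against -0.00.

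The labels number the mice 1 to 3 in each group without saying that a number joins mice. Same-numbered ConvR and GF mice had correlations of their deviations from the group means of 0.097, -0.057 and 0.246 on chow and of -0.126, 0.028 and -0.031 on HF/HS, so the numbers were not taken as pairs. With the replicate block 402 genes were called on chow, 143 on HF/HS and 0 for the interaction. At 14737578 to 21219381 reads per library, a gene at 2 CPM in a library had more than 20 reads there. The cut of 2 CPM was on a mean, however. Prtn3 and Mmd2 in GF mice and Gpx6 in ConvR mice lay far below it, so that their large fold changes rest on few reads there. What depth and the number of mice each limit was not compared.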
